A study of Homo sapiens with 6 samples.

Results

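The 26S proteasome genes were examined in RNA-seq libraries of the human lung adenocarcinoma line H1650. Members were the protein-coding genes whose symbol starts with PSM, followed by a letter from A to G and a number. The rule found 46 of 15897 listed genes, of which 13617 are protein-coding. All 46 had a mean FPKM (fragments per kilobase of gene, scaled to the mapped fragments of the library) of at least 0.5, the minimum for testing, as did 14068 genes in all. PSMD5, PSMB8 and PSMB9 reached this minimum only through the libraries labelled shSETD2, so that these 3 genes had to differ between the groups once they were tested. PSMA8 and PSMB11, a testis and a thymus subunit, were not listed.

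The study asked which genes change when SETD2, a histone H3 lysine 36 methyltransferase, is depleted. The 3 control libraries carry the genotype label wild type and the other 3 the label shSETD2, and both groups were made from total RNA with a stranded library kit. Depleted cells were stable lines made with lentiviral short hairpin RNAs, for which the study describes 3 constructs. The labels do not say whether a replicate number stands for a construct, or whether replicates were separate cultures, so that p-values measure only the spread between these libraries, which may be technical. The number of fragments per library is unknown, because only FPKM values were used here. The FPKM of all listed genes summed to between 218769 and 224603 in each library.

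SETD2 itself did not separate the groups. Controls 1, 2 and 3 had 18.0, 10.2 and 17.6 FPKM of it, and shSETD2 libraries 1, 2 and 3 had 8.97, 8.09 and 12.2. Control 2 lay below shSETD2 3, and the log2 fold change was -0.58 (SE 0.240, adjusted p = 0.0641 by limma). Without control 2 it was -0.83 (adjusted p = 0.00666 by limma), and without shSETD2 3 it was -0.73 (adjusted p = 0.0420). Without any one of the other libraries it lay between -0.53 and -0.45 (adjusted p between 0.149 and 0.181), and with median ratio scaling it was -0.25 (adjusted p = 0.377). It was lower in shSETD2 than in control within each pair of the same number and passed with the replicate number as a block (adjusted p = 0.0156), although no label makes these libraries pairs. The groups are therefore called by their labels throughout.

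The groups also stood apart in genes that mark cell types. Across tested genes, Pearson's r between libraries on the log2 scale was 0.98 to 0.99 within a group and 0.70 to 0.71 between groups. Genes are not independent replicates, and these values only describe the distance between the groups. Of 10 lung epithelial markers, 1 was listed: NKX2-1, the lung lineage factor, at 1.71, 1.80 and 1.44 FPKM in control libraries and at 0 in every shSETD2 library. Of 6 epithelial markers, 5 were listed, with summed FPKM of 15.9, 14.0 and 14.8 in control and 437, 401 and 453 in shSETD2 libraries. KRT7, KRT8 and KRT18 were higher in shSETD2 libraries, and KRT18 was the most abundant of these markers in both groups. CDH1 and EPCAM went the other way. CDH1 was at 1.27 ± 0.358 in control against 0.0120 ± 0.00175 FPKM (SD, n = 3). EPCAM, too scarce to be tested, was at 0.710 ± 0.124 against 0.220 ± 0.0712. Of 6 renal epithelial markers, 4 were listed, with sums of 1.77, 1.58 and 1.33 against 65.9, 56.0 and 59.1. By group mean LHX1 led them in control and PAX8 in shSETD2 libraries. Of 10 leukocyte markers, CD14 and LCP1 were listed, with sums between 0.546 and 0.674 in control and between 1.20 and 1.35 in shSETD2 libraries, while PTPRC, CD3E and HLA-DRA were not listed. The part of these differences in the proteasome values below was not tested. In bulk RNA, fewer cells of a type and less RNA per cell cannot be told apart.

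The proteasome degrades proteins tagged with ubiquitin. Its 20S core is a stack of alpha and beta rings, in which PSMB5, PSMB6 and PSMB7 carry the active sites, and the 19S cap with its ATPases binds, unfolds and feeds in the substrate. Interferons induce the alternative active subunits PSMB8, PSMB9 and PSMB10, which replace their constitutive counterparts in newly built immunoproteasomes, and the PA28 activator made of PSME1 and PSME2; together these alter the peptides offered on MHC class I molecules.

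Proteasome RNA was more abundant in the libraries labelled shSETD2. The summed FPKM of the 46 genes was 816, 819 and 805 in control libraries and 1157, 1092 and 1139 in shSETD2 libraries. This was 0.367, 0.373 and 0.360% of all listed FPKM in control and 0.527, 0.499 and 0.507% in shSETD2 libraries. The sum was not raised evenly. PSMA7 alone went from a mean of 47.0 to 134 FPKM. PSMD5, PSMB8 and PSMB9, near 0 in control, had means of 16.2, 22.1 and 10.2 in shSETD2 libraries. Of the 46 genes, 26 were called higher and 8 lower by limma at an adjusted p under 0.05, and 12 passed in neither direction. The 26 include PSMD5, PSMB8 and PSMB9, whose call was fixed by the minimum for testing. Over all genes tested, 26.8% were called higher and 51.8% lower. At a log2 fold change of at least 1 in either direction, 8 members were higher, the same 3 among them, against 11.2% of all genes, and 2 were lower, against 18.7%. In 27 members the lowest shSETD2 value exceeded the highest control value, in 8 the reverse held, and in 11 the groups overlapped. Over all genes tested, these shares were 27.9% with shSETD2 above and 53.0% with shSETD2 below.

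Since 7283 of all genes tested were called lower, the members were also read against the median of the whole table. All fold changes were taken from log2(FPKM + 1), so that those of scarce RNAs come out too small. The median log2 fold change was 0.30 over the members and -0.29 over all genes tested, a difference of 0.59. Median ratio scaling moved the median of all genes by 0.28 and called 36 members higher and 5 lower, beside 37.7% and 38.3% of all genes. The difference between the members' median and that of all genes was then 0.64. Of the 12 members that had passed in neither direction, all but PSMB5 and PSME3 were then called higher. Quantile normalization called 23 members higher and 10 lower, beside 32.8% and 42.3% of all genes. With it the calls of PSMB4, PSMC2, PSMD3, PSMD7 and PSME4 were lost, with adjusted p by limma of 0.297, 0.151, 0.0529, 0.0623 and 0.0564. Calls as higher were gained for PSMA2 and PSMD9, with 0.0334 and 0.0219. Calls as lower were gained for PSMB1 and PSMD4, with 0.00428 and 0.0181.

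**Figure D1:**
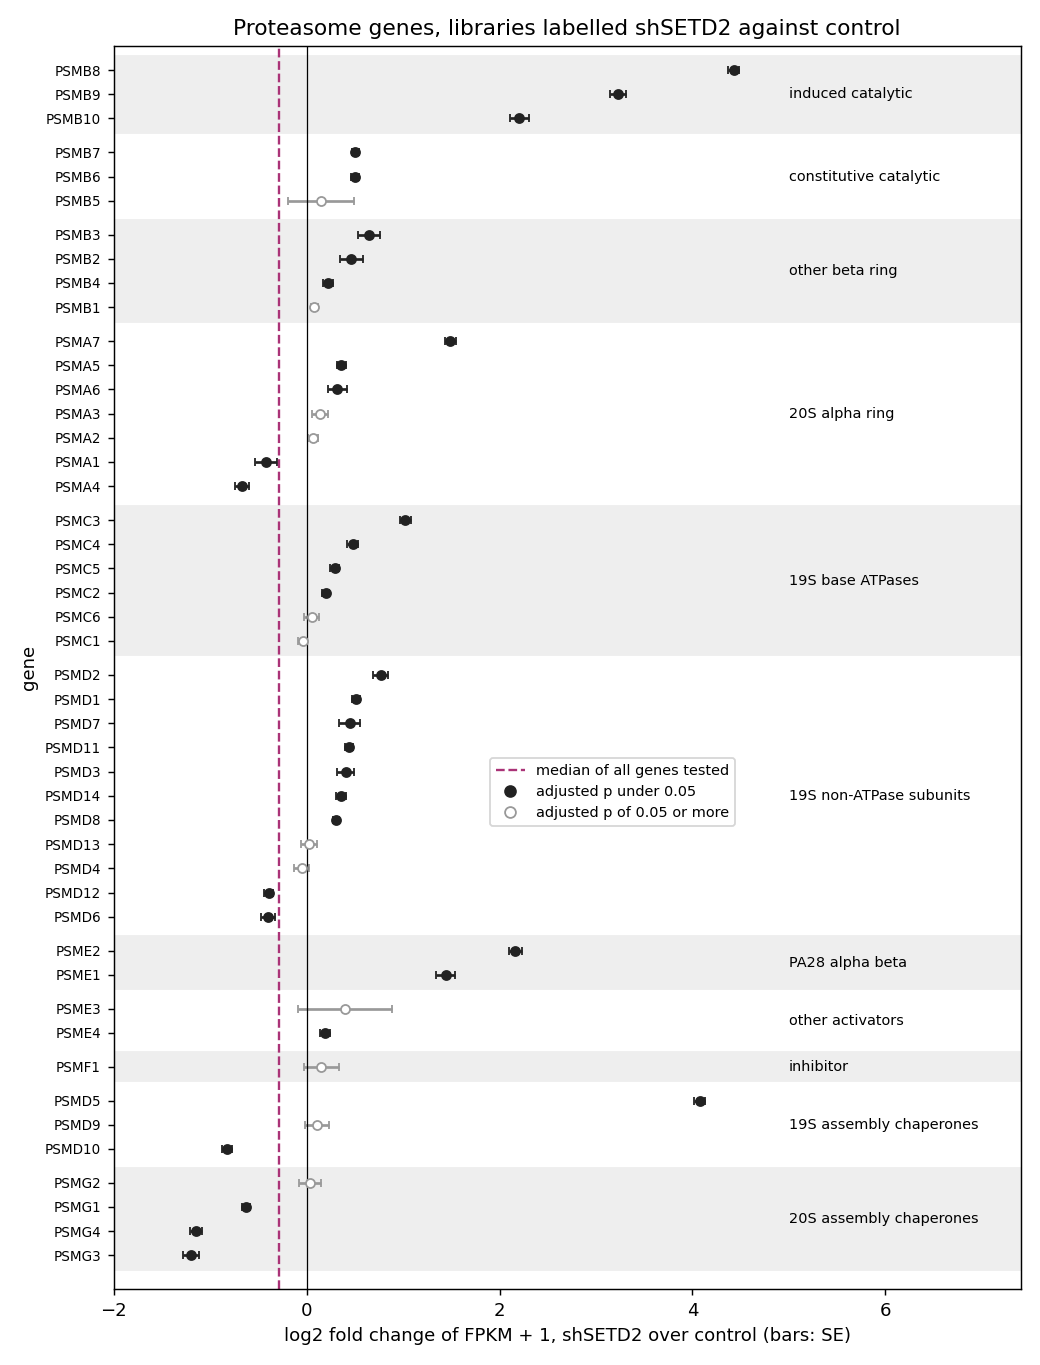
Log2 fold change of FPKM + 1 (x axis) of each of the 46 proteasome genes (y axis), with its SE from limma over 3 control and 3 shSETD2 libraries. Filled points have an adjusted p under 0.05, and the dashed line is the median of all genes tested, -0.29. The induced catalytic subunits, PSMD5, PA28 and PSMA7 lie far to the right, whereas 3 of the 4 chaperones of 20S assembly lie to the left.

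All 3 induced catalytic subunits were higher in the libraries labelled shSETD2. For PSMB8 and PSMB9, which were tested only because of their level in that group, no p-value is given. PSMB8, the beta5i subunit, had an FPKM of 0.0539, 0.0461 and 0.119 in control libraries and 21.8, 21.3 and 23.2 in shSETD2 libraries. Its log2 fold change was 4.43. PSMB9, the beta1i subunit, was at 0.106, 0.175 and 0.313 against 10.6, 9.86 and 10.1, a log2 fold change of 3.23. PSMB10, the beta2i subunit, was the only induced subunit with an FPKM above 1 in every control library. It was at 1.24, 1.19 and 1.72 against 9.69, 9.79 and 10.4, and rose by 2.21 on the log2 scale (SE 0.0944, adjusted p = 2.09e-06 by limma). In all 3 genes control 3 was the highest control library. In shSETD2 libraries PSMB8 was the most abundant of the 3, and PSMB9 and PSMB10 lay within their spread of each other.

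The constitutive catalytic subunits changed much less. PSMB6, the beta1 subunit, was at 22.5, 22.8 and 23.8 FPKM in control libraries and 33.3, 31.6 and 34.1 in shSETD2 libraries, a log2 fold change of 0.50 (adjusted p = 6.71e-05 by limma). PSMB7, the beta2 subunit, was at 43.1, 44.7 and 44.5 against 63.1, 62.5 and 63.8, a log2 fold change of 0.51 (adjusted p = 1.30e-05). Both rose with no overlap of the groups. PSMB5, the beta5 subunit and target of proteasome inhibitors, was at 34.3, 12.9 and 15.6 against 24.9, 21.4 and 18.2. Here control 1 stood above all other libraries, the groups overlapped, and the log2 fold change of 0.15 did not pass (adjusted p = 0.705 by limma). Without control 1 the log2 fold change of PSMB5 was 0.56 (adjusted p = 0.0187), and without control 2 it was -0.11 (adjusted p = 0.774). Its direction thus depended on single control libraries.

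Within each library, every induced subunit was then set against the constitutive subunit it replaces. As a percent of PSMB5, the FPKM of PSMB8 was 0.157, 0.356 and 0.764 in control libraries and 87.6, 99.6 and 128 in shSETD2 libraries. PSMB9 was 0.470, 0.770 and 1.32% of PSMB6 in control and 32.0, 31.2 and 29.6% in shSETD2 libraries. PSMB10 was 2.87, 2.65 and 3.86% of PSMB7 in control and 15.4, 15.7 and 16.2% in shSETD2 libraries. So the RNA of PSMB8 reached the level of its counterpart, while the RNAs of PSMB9 and PSMB10 stayed below theirs. Subunit proteins were not measured. PSMB5 itself varied, from 12.9 to 34.3 FPKM in control and from 18.2 to 24.9 in shSETD2 libraries. The log2 ratio of FPKM + 1 rose by 4.28 for PSMB8 over PSMB5, by 2.73 for PSMB9 over PSMB6 and by 1.70 for PSMB10 over PSMB7. An exact two-sided permutation test of 3 against 3 libraries cannot give a p below 0.1, so no p-value is given for these ratios. Taken over all 6 catalytic genes, the induced subunits held 1.38, 1.72 and 2.50% of the summed FPKM in control libraries and 25.8, 26.2 and 27.3% in shSETD2 libraries.

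**Figure D2:**
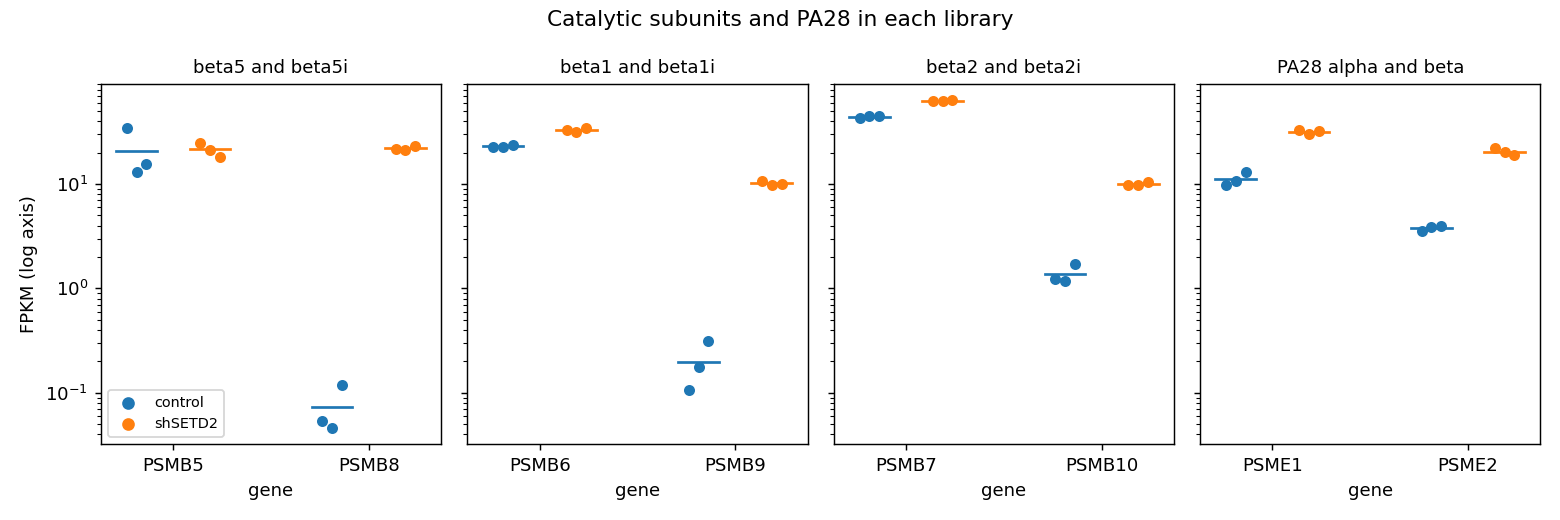
FPKM on a log axis of each constitutive catalytic subunit and its induced counterpart, and of both PA28 genes, in 3 control (blue) and 3 shSETD2 (orange) libraries; lines are group means. PSMB8 rises from below 0.12 to the level of PSMB5, and PSMB5 alone has overlapping groups.

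**Figure D3:**
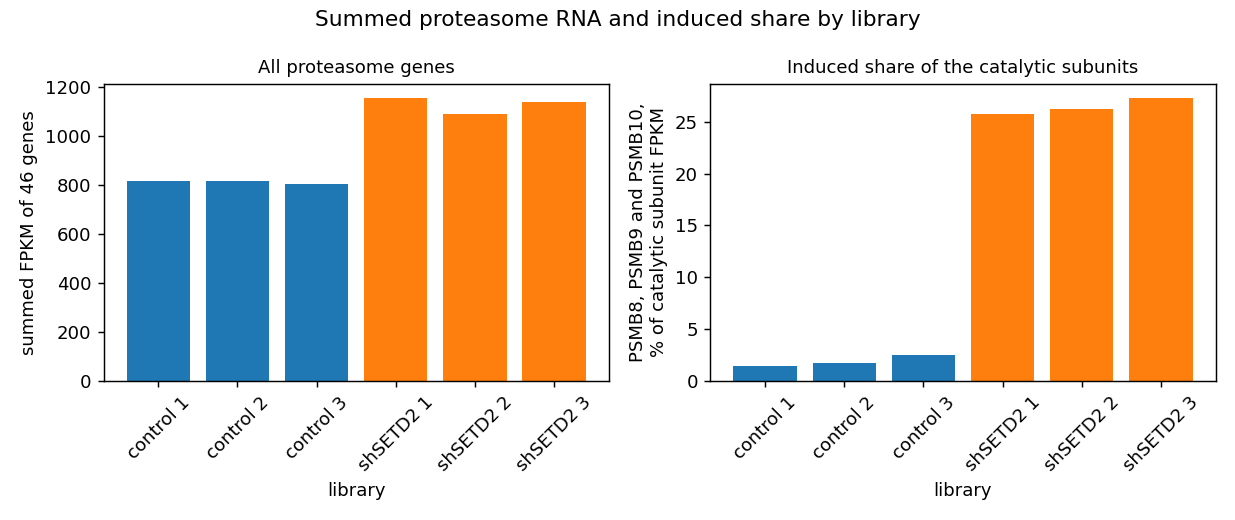
Summed FPKM of the 46 proteasome genes (left) and percent of catalytic subunit FPKM held by PSMB8, PSMB9 and PSMB10 (right) in each library, with control in blue and shSETD2 in orange. The sums are 805 to 819 against 1092 to 1157, and the shares 1.38 to 2.50% against 25.8 to 27.3%.

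Of the 4 genes of proteasome activators, 3 rose and 1 did not pass, beside 26.8% of all genes tested called higher and 51.8% lower. PSME1, the alpha subunit of PA28, was at 9.74, 10.6 and 12.9 FPKM in control and 32.7, 30.1 and 32.4 in shSETD2 libraries, a log2 fold change of 1.44 (SE 0.0997, adjusted p = 1.90e-05 by limma). PSME2, its beta subunit, was at 3.55, 3.84 and 3.97 against 22.0, 20.3 and 19.01, a log2 fold change of 2.16 (SE 0.0683, adjusted p = 5.65e-07). The 2 subunits assemble into 1 ring, and their mean FPKM were 11.1 and 3.79 in control and 31.7 and 20.5 in shSETD2 libraries. PSME4, the nuclear activator PA200, rose by 0.19 on the log2 scale (adjusted p = 0.0156 by limma). This call was lost with quantile normalization, at 0.14 (adjusted p = 0.0564 by limma). PSME3, the nuclear PA28 gamma, varied widely within both groups, at 6.68, 22.8 and 8.77 against 23.9, 9.92 and 13.9, and did not pass (adjusted p = 0.479). PSMF1, the inhibitor PI31, was at 16.3, 13.7 and 12.8 against 18.2, 18.7 and 11.7 (adjusted p = 0.470 by limma). It passed once shSETD2 3, its lowest library, was left out, with a log2 fold change of 0.36 (adjusted p = 0.0264).

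The standard 20S subunits, whose proteins are present in equal number in the ring stack, did not move together in their RNA. Beside 26.8% of all genes tested called higher and 51.8% lower, 3 of the 7 alpha ring genes rose, 2 fell and 2 did not pass, with a median log2 fold change of 0.14. PSMA7 stood out. Its FPKM was 48.1, 43.99 and 49.0 in control and 136, 127 and 138 in shSETD2 libraries, a log2 fold change of 1.49 (SE 0.0562, adjusted p = 1.20e-06 by limma). PSMA4 fell from 14.7 ± 1.34 to 8.85 ± 0.192 FPKM (SD, n = 3, log2 fold change -0.67, adjusted p = 0.000153 by limma). PSMA1 fell by 0.42 on the log2 scale (adjusted p = 0.0152), a call that was lost with an ordinary linear model (adjusted p = 0.0538) and with median ratio scaling, where its log2 fold change was -0.08. PSMA5 rose by 0.36, and PSMA2 and PSMA3 did not pass. PSMA6 rose by 0.32 (adjusted p = 0.0211 by limma), which was lost without shSETD2 1 (adjusted p = 0.0636) or shSETD2 3 (adjusted p = 0.0635) and with an ordinary linear model (adjusted p = 0.0576). Its gene model overlaps AL121594.3 on the same strand, which was looked up after the values were seen. The summed FPKM of both was 10.4, 8.55 and 10.4 in control and 9.92, 10.9 and 10.8 in shSETD2 libraries, so that the groups overlapped in the sum. Fragments of the 2 genes may have been divided uncertainly.

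Of the 4 beta ring genes without active sites, 3 rose and 1 did not pass, with a median log2 fold change of 0.34. Among all genes tested, 26.8% were called higher and 51.8% lower. PSMB3 rose from 43.8 ± 4.42 to 69.2 ± 8.83 FPKM (SD, n = 3) and PSMB2 from 16.8 ± 0.287 to 23.8 ± 4.46, the latter led by shSETD2 1 at 28.9. PSMB4 rose by 0.22 on the log2 scale (adjusted p = 0.00887 by limma) but was at -0.05 with quantile normalization. PSMB1 did not pass (log2 fold change 0.08, adjusted p = 0.0943) but passed as higher with median ratio scaling (0.43) and upper quartile scaling (0.16) and as lower with quantile normalization (-0.19). Across the 14 standard 20S genes, the most abundant was 7.28 to 9.45 times the least abundant in control libraries and 16.4 to 16.7 times in shSETD2 libraries. PSMA6 was the lowest in all 6 libraries and PSMA7 the highest in every shSETD2 library.

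Of the 17 subunits of the 19S cap, 11 rose, 2 fell and 4 did not pass, with a median log2 fold change of 0.31. Of all genes tested, 26.8% were called higher and 51.8% lower. Among the cap genes, 3 of the 11 calls (PSMC2, PSMD3 and PSMD7) were lost with quantile normalization. Of the 6 base ATPases, 4 rose and 2 did not pass. PSMC3 was at 24.9, 28.0 and 24.7 FPKM in control and 54.9, 52.3 and 53.6 in shSETD2 libraries, a log2 fold change of 1.02 (SE 0.0569, adjusted p = 6.79e-06 by limma). The other ATPases moved less. PSMC4 rose by 0.48, PSMC5 by 0.29 and PSMC2 by 0.20, and PSMC6 did not pass. PSMC1, with 13 annotated pseudogenes, was at -0.04 (adjusted p = 0.478) and at 0.28 with median ratio scaling. Within the ring that the 6 ATPases form, PSMC3 thus rose from 25.9 ± 1.86 to 53.6 ± 1.32 FPKM (SD, n = 3), while PSMC1 and PSMC6 had overlapping groups.

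Of the 11 other 19S subunits, 7 rose, 2 fell and 2 did not pass, with a median log2 fold change of 0.36. The shares over all genes tested were 26.8% higher and 51.8% lower. PSMD2, a large scaffold subunit of the base, rose from 19 ± 0.787 to 33.1 ± 3.59 FPKM (SD, n = 3, log2 fold change 0.77, adjusted p = 0.000142 by limma). PSMD1, the other large scaffold subunit, rose by 0.51 and PSMD14, the deubiquitinase of the lid, by 0.36. PSMD7, the inactive partner of PSMD14, rose by 0.45, PSMD11 by 0.44, PSMD3 by 0.41 and PSMD8 by 0.31. The lid subunits PSMD6 and PSMD12 fell, by 0.40 and 0.39 on the log2 scale, but neither call held with median ratio scaling, where the values were -0.09 and -0.05. The ubiquitin receptor PSMD4 was at 28.3, 29.1 and 34.7 FPKM against 30.1, 28.6 and 29.7 and did not pass, with a log2 fold change of -0.05 that was 0.29 with median ratio scaling and -0.28 with quantile normalization, both past the threshold. PSMD13 did not pass either. In the 17 cap genes the most abundant was 4.09 to 4.92 times the least abundant in control and 8.19 to 10.2 times in shSETD2 libraries.

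Of the 4 chaperones of 20S assembly, 3 fell and 1 did not pass, in a table where 51.8% of all genes tested were called lower. Their median log2 fold change was -0.89, beside -0.29 over all genes tested. PSMG3 was at 22.3, 24.7 and 27.6 FPKM in control and 10.02, 9.91 and 10.7 in shSETD2 libraries, and fell by 1.20 on the log2 scale (SE 0.0806, adjusted p = 1.65e-05 by limma). PSMG4, its partner in the PAC3 and PAC4 dimer, was at 2.65, 2.39 and 2.60 against 0.644, 0.530 and 0.637 and fell by 1.14 (SE 0.0616, adjusted p = 5.84e-06). Its model overlaps those of TUBB2B and SLC22A23 on the other strand, which were looked up after the values were seen and were lower too (log2 fold changes -3.21 and -2.32), and fragments of the 3 genes may have been divided uncertainly. SLC22A23 was tested only because of its level in control libraries, so that it had to differ. PSMG1, or PAC1, was at 21.8, 22.3 and 21.9 against 14.2, 13.5 and 14.0 and fell by 0.63 (adjusted p = 1.25e-05). In all 3 chaperones the groups did not overlap. PSMG2, the partner of PSMG1, was at 4.88, 4.98 and 5.80 against 5.43, 6.27 and 4.52 and did not pass (adjusted p = 0.783 by limma). POMP, the maturation factor of the 20S core, lies outside the name rule and was chosen after its values were seen. It rose by 0.27 on the log2 scale (adjusted p = 0.00255), a difference that vanished with quantile normalization.

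Of the 3 chaperones of 19S base assembly, 1 rose, 1 fell and 1 did not pass, beside 26.8% of all genes tested called higher and 51.8% lower. The 1 that rose is PSMD5, whose call was fixed by the minimum for testing. PSMD5, or S5b, was at 0.0415, 0.0209 and 0 FPKM in control libraries and 16.0, 17.1 and 15.6 in shSETD2 libraries. It was listed at 0 in control 3, and its log2 fold change was 4.08. No p-value is given, as for PSMB8 and PSMB9. PSMD10, or gankyrin, was at 15.7, 15.1 and 16.1 against 7.93, 8.74 and 8.53 and fell by 0.82 (adjusted p = 1.30e-05 by limma). PSMD9 did not pass, at 2.43, 2.70 and 3.15 against 2.87, 3.73 and 2.58.

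**Figure D4:**
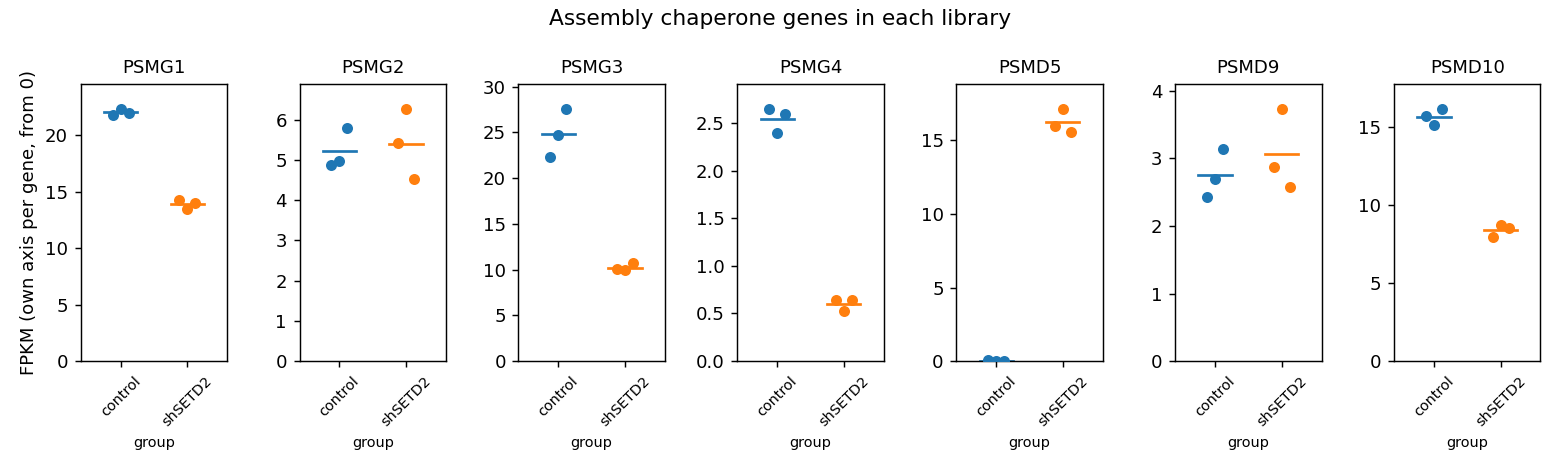
FPKM of the 7 assembly chaperone genes in 3 control (blue) and 3 shSETD2 (orange) libraries, each gene on its own axis from 0, with lines for group means. PSMG1, PSMG3, PSMG4 and PSMD10 lie lower in every shSETD2 library, PSMD5 goes from at most 0.0415 to at least 15.6, and PSMG2 and PSMD9 overlap.

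Of 16 genes for proteins that bind the proteasome, encoded outside the name rule, 5 rose, 9 fell and 2 did not pass, near the 26.8% and 51.8% of all genes tested. Their median log2 fold change was -0.28, close to the -0.29 of all genes. With median ratio scaling 7 were called higher and 5 lower, beside 37.7% and 38.3% of all genes. ADRM1, the ubiquitin receptor that recruits UCHL5, was at 21.7, 23.4 and 22.7 FPKM in control and 83.8, 80.9 and 87.5 in shSETD2 libraries (log2 fold change 1.85, adjusted p = 2.23e-07 by limma). UCHL5, the deubiquitinase held by ADRM1, went the other way, at 19.7, 20.8 and 19.5 against 6.66, 6.83 and 6.16 (log2 fold change -1.48, adjusted p = 1.0e-06). Receptor and enzyme thus changed in opposite directions. PAAF1, a chaperone of the base, fell by 1.13 on the log2 scale, while the activator ZFAND5 rose by 1.25. Of 5 genes that encode ubiquitin or its activating enzyme, 1 rose and 3 fell, beside 26.8% and 51.8% of all genes tested. The enzyme gene UBA1 rose by 0.79, and the ubiquitin genes RPS27A and UBB fell by 0.23 and 0.12. With median ratio scaling RPS27A and UBB were at 0.12 and 0.23. The call of UBB was also lost without control 1, 2 or 3 or shSETD2 2 or 3, with adjusted p by limma between 0.0587 and 0.0876.

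Of 8 genes that regulate proteasome genes through the antioxidant response element, 5 rose, 2 fell and 1 did not pass, beside 26.8% of all genes tested called higher and 51.8% lower. MAFF, a small MAF partner, was at 0.995, 1.06 and 0.978 FPKM in control and 4.50, 15.6 and 4.51 in shSETD2 libraries, with shSETD2 2 far above the other two (log2 fold change 1.98, adjusted p = 0.00495 by limma). NFE2L2, or NRF2, was at 4.07, 3.98 and 3.51 against 7.28, 6.86 and 18.0. Its log2 fold change was 1.15 (adjusted p = 0.0183) and 0.74 without shSETD2 3 (adjusted p = 0.000464 by limma), and it did not pass without control 3 (adjusted p = 0.0564) or with an ordinary linear model (adjusted p = 0.0668). MAFK rose by 1.06 and VCP, the segregase needed to process NRF1, by 0.80. DDI2, the protease that cleaves NRF1, fell by 0.84. NFE2L1, the gene of NRF1 itself, did not pass and was named after its values were seen. It was at 15.9, 8.09 and 13.2 FPKM in control and 12.6, 28.6 and 22.3 in shSETD2 libraries. Its log2 fold change was 0.70 (adjusted p = 0.103 by limma), and with median ratio scaling it passed, at 1.03 (adjusted p = 0.0312).

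Most regulators of the immunoproteasome and genes of peptide loading were called higher, beside 26.8% of all genes tested. Of 14 regulators tested of 16 listed, 11 rose, 2 fell and 1 did not pass, with a median log2 fold change of 0.99. IRF1, an interferon-induced factor that acts on PSMB9 and TAP1, was at 1.13, 1.08 and 1.08 FPKM in control and 11.3, 11.0 and 11.7 in shSETD2 libraries (log2 fold change 2.56, adjusted p = 7.97e-08 by limma). SOCS3 and SOCS1, feedback inhibitors of JAK kinases, rose by 2.21 and 1.96, JAK1 by 2.11 and STAT3 by 1.57. The genes that fell were IFNGR1, by 0.38, and JAK2, by 0.35, and neither call held with median ratio scaling. IRF8, which was too scarce to be tested and was chosen after its values were seen, was at 0.574, 0.896 and 0.516 FPKM in control libraries and listed at 0 in every shSETD2 library.

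Of 11 genes of peptide transport and loading, 8 rose, 2 fell and 1 did not pass, with a median log2 fold change of 0.90. Of all genes tested, 26.8% were called higher and 51.8% lower. The 8 include ERAP2, a further peptide trimmer, which reached the minimum for testing only through the shSETD2 libraries, so that its call was fixed; it is named after its values were seen. TAPBP, or tapasin, was at 4.29, 4.19 and 3.76 FPKM in control and 65.7, 65.8 and 66.5 in shSETD2 libraries (log2 fold change 3.72, adjusted p = 2.92e-08 by limma). ERAP1, which trims peptides, rose from 1.08 ± 0.0354 to 20.9 ± 0.917 FPKM (SD, n = 3, log2 fold change 3.40, adjusted p = 3.94e-08 by limma). The transporter genes TAP1 and TAP2 rose by 2.13 and 1.97. HLA-B and HLA-C, chosen after their values were seen, fell by 0.43 and 0.68, although neither passed with median ratio scaling. Class I genes are near-identical copies, and how fragments were divided among them is uncertain.

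PSMB8 and PSMB9 lie side by side with TAP1 and TAP2 in the MHC class II region of chromosome 6. In hg19, PSMB8 lies at chr6:32808494-32812480 on the minus strand and PSMB9 at chr6:32811913-32827362 on the plus strand. The model of PSMB9 overlaps the 5′ end of PSMB8 and the whole of TAP1, at chr6:32812986-32821755 on the minus strand. The kit marks strand, but whether the quantification used it is not given in the sources used here, so that fragments of overlapping genes may have been divided uncertainly. Of the 46 members, 22 overlap another listed gene. PSMB8 had a higher FPKM than PSMB9, TAP1 or TAP2 in every shSETD2 library. The next listed genes towards lower coordinates, HLA-DRB1 and HLA-DQB1, were chosen with the other neighbours after values were seen. HLA-DRB1 was at 3.55, 2.89 and 3.75 FPKM and HLA-DQB1 at 2.03, 2.96 and 2.06 in control libraries, and both were at 0 in every shSETD2 library. On the other side HLA-DMB, a further class II gene, was at 1.05, 1.04 and 0.958 against 0, 0 and 0.0267. HLA-DRB1, HLA-DQB1 and HLA-DMB reached the minimum for testing only through the control libraries, so that they had to differ once tested. The 4 genes of peptide processing thus rose between class II genes at or near 0 in the shSETD2 libraries, a description of chosen neighbours and not a test.

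PSME1 and PSME2 are neighbours on chromosome 14, at chr14:24605367-24608176 on the plus strand and chr14:24612571-24616779 on the minus strand. EMC9 lies between them and was at 6.63, 6.25 and 7.12 FPKM in control and 6.94, 5.95 and 6.08 in shSETD2 libraries, with no call (adjusted p = 0.441 by limma). RNF31, which overlaps the 5′ end of PSME2, had no call either (log2 fold change 0.05, adjusted p = 0.362). With median ratio scaling both passed, at 0.24 and 0.34, and RNF31 also with quantile normalization, at 0.27. The PA28 genes thus rose on either side of a gene whose values overlapped between the groups. The rise was not confined to them. Beyond RNF31, AL136295.5 and IRF9 rose by 0.59 and 0.71 (adjusted p = 0.0388 and 0.00390 by limma). On the side of PSME1, DCAF11 had no call (adjusted p = 0.158) and PCK2 fell by 0.49 (adjusted p = 0.000505). Directly on either side of PSMD5, at chr9:123577774-123605262 on the minus strand, PHF19 rose by 1.39 and AL161911.1 fell by 0.92. PSMA7 and ADRM1 both lie on chromosome 20, where the median log2 fold change of 372 tested genes was 0.40 and 57.3% were called higher. PSMF1, the other member on this chromosome, did not pass. Directly beside PSMA7, LSM14B rose by 0.77 and SS18L1 did not pass, though it did with median ratio scaling (0.39), upper quartile scaling (0.16) and quantile normalization (0.24).

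**Figure D5:**
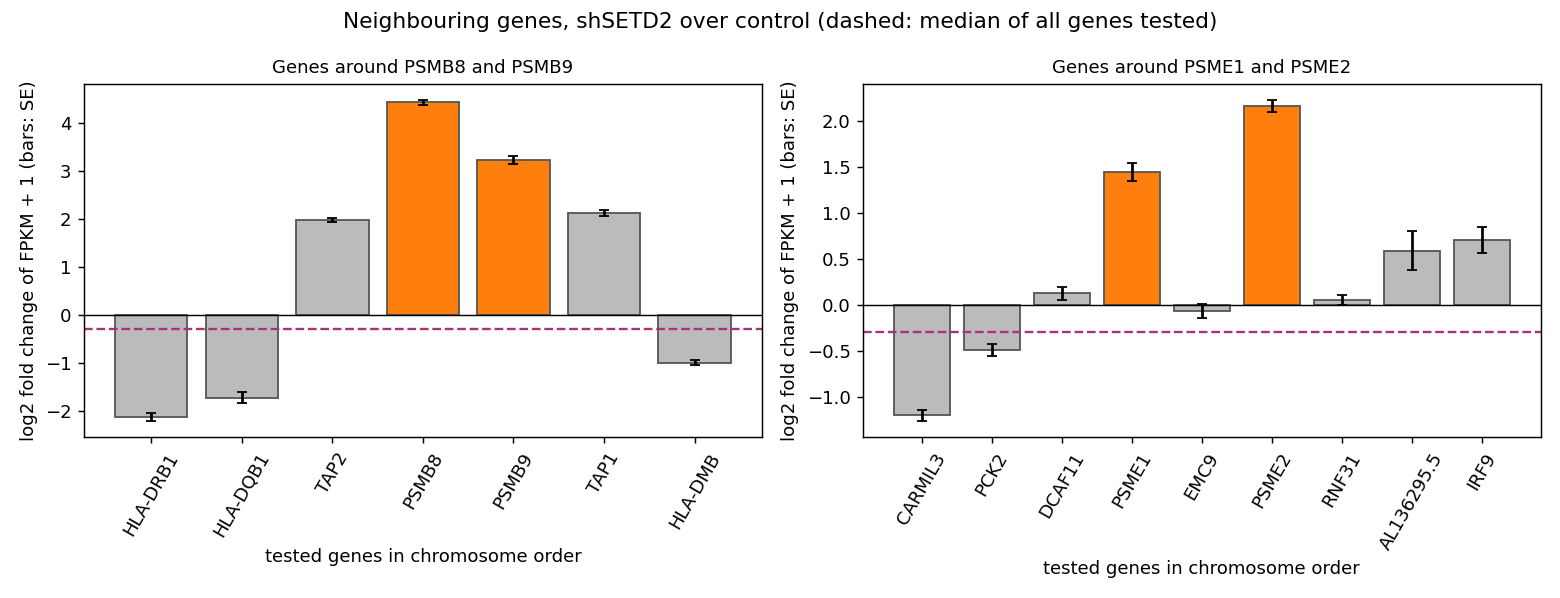
Log2 fold change of FPKM + 1 with its SE for tested genes around PSMB8 and PSMB9 (left) and around PSME1 and PSME2 (right), in chromosome order, with proteasome genes in orange and the median of all genes tested, -0.29, as a dashed line. TAP2, PSMB8, PSMB9 and TAP1 rise between class II genes that are lower, and EMC9 between PSME1 and PSME2 is near 0. HLA-DRB1, HLA-DQB1 and HLA-DMB on the left and CARMIL3 on the right were tested only because of their level in control libraries. PSMB8 and PSMB9 were tested only because of their level in shSETD2 libraries.

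Because the induced subunits and PA28 moved together, promoters were searched for elements known from interferon and stress responses. RefSeq promoters (GRCh38.p14 table, 250 bases before to 50 after the start site) were found for 40 of 46 members, with 49 promoters in all. PSMA7, PSMB1, PSMB6, PSMB7, PSMD4 and PSMG3 had no entry. Both strands were searched for the interferon-stimulated response element (ISRE) as GAAANNGAAA, the gamma-activated site (GAS) as TTCNNNGAA, the NF-kB motif, the core of the antioxidant response element as TGACNNNGC, and the CCAAT box. An ISRE was found in 7 of 49 member promoters (14.3%) and in 3.57% of all 35116 promoters. GAS was found in 14.3% against 7.66%, NF-kB in 2.04% against 11.3%, the antioxidant core in 30.6% against 13.3%, and the CCAAT box in 38.8% against 34.6%. No test was made of these shares, and a match is only a stretch of letters.

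The same ISRE letters, GAAAGCGAAA, stood in promoters of PSMB8, PSMB10, PSME1, PSME2 and PSMG4, 5 of 49 member promoters (10.2%), against 35 of all 35116 (0.0997%). These letters were taken from the PSMB8 promoter after the member promoters were seen, so that the contrast is a description of the genes it was built on. In all 5 the match began within 33 bases of the start site. The other 2 matches were GAAAATGAAA in PSMA4 and GAAAAAGAAA in PSMB4. PSMG4 is shown because it fell although it holds the same letters, and was chosen for this after its values were seen. The 100 bases from 80 before the start site are printed 5′ to 3′ in the direction of the gene, with ISRE and GAS in capitals; a match on the other strand appears as its reverse complement. They are RefSeq sequences with an exact match in GRCh37 at chr6:32811805-32811904 (minus strand) for PSMB8, chr16:67970734-67970833 (minus) for PSMB10, chr14:24605323-24605422 (plus) for PSME1, chr14:24615800-24615899 (minus) for PSME2 and chr6:3259101-3259200 (plus) for PSMG4.
PSMB8: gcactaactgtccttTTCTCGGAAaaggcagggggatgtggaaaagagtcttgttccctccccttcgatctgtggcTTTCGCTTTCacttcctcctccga
PSMB10: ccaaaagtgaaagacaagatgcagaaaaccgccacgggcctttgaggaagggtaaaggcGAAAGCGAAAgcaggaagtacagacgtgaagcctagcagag
PSME1: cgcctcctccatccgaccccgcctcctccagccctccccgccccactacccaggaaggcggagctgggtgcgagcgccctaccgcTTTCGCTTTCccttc
PSME2: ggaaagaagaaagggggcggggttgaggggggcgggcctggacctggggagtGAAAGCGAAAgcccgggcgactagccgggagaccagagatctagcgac
PSMG4: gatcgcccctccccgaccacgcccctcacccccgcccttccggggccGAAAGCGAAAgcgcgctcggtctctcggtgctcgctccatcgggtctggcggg

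PSMB8 has a second listed promoter with none of the 5 motifs. The promoter of PSMB9 held no ISRE, GAS or NF-kB match, and of the 5 motifs had the antioxidant core and a CCAAT box. It is printed because PSMB9 rose with PSMB8, and lies at chr6:32821889-32821988 on the plus strand. The start sites of PSMB9 and TAP1 point away from each other and are 488 bases apart. The stretch between them, read here as part of the TAP1 promoter and chosen after values were seen, held 2 overlapping ISRE matches, 354 bases from the start of PSMB9 at the nearest base, and an NF-kB match. It is printed from 160 bases before the start of TAP1, at chr6:32821542-32821641 on the minus strand, with these matches in capitals. PSMD5, which rose from near 0, had only the antioxidant core, 134 bases before its start site, outside the 100 bases printed, which lie at chr9:123605181-123605280 on the minus strand.
PSMB9: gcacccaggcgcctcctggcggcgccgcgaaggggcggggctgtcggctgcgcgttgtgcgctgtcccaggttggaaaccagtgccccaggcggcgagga
TAP1: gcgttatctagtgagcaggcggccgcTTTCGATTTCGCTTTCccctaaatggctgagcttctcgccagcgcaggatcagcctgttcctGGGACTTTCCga
PSMD5: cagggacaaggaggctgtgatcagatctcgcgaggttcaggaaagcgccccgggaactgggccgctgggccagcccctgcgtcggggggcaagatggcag

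PSMB5, the constitutive counterpart of PSMB8, had 2 promoters in the table, of which 1 held GAS matches and the other a CCAAT box, and neither an ISRE. Of the 27 promoters of members that rose, 5 held an ISRE, as did 2 of the 9 promoters of members that fell and 0 of the 13 promoters of members that passed in neither direction. The antioxidant core was in 10 of 27, 3 of 9 and 2 of 13 of these promoters. Members also differ in how many copies resemble them: 17 of the 46 have annotated pseudogenes, 44 in all, with 13 for PSMC1, 6 for PSME2 and 4 for PSMA6. PSMB8, PSMB9, PSMB10, PSME1 and PSMD5 have none under their names. How fragments shared with such copies were assigned is not given in the sources used here.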

How the data were processed

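Total RNA of 6 libraries was sequenced, 3 control and 3 shSETD2. The authors mapped reads to hg19 with HISAT2, quantified genes with Ballgown and deposited FPKM per gene and library; versions, strand setting and the filter behind the listed genes are not given in the sources used here. A table of the authors' own group comparison was not used. Low FPKM were not whole multiples of a step, so depth is unknown. All genes whose FPKM averaged 0.5 or more were tested on log2(FPKM + 1) with limma 3.58.1 (R 4.3.3, intensity trend), with Benjamini-Hochberg adjustment over 14068 genes and a threshold of 0.05, and the fit was tested on simulated data. Ratios of catalytic subunits were tested by exact permutation in scipy 1.17.1. Named were all members, SETD2, at most 5 most changed called genes per companion list, and promoters of the induced subunits, PSMB5, PSME1, PSME2 and members changed by at least 2 on the log2 scale. Some genes that this rule names are not reported here. Members and lists were chosen with earlier results of these data known. Alternatives were other pseudocounts, filters, scalings and variance models, a replicate block, and each library left out.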

Additional observations from a re-analysis of the deposited data

How the results depend on the processing

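Counts of members called higher were 23 to 36 over all alternatives, and of those called lower 5 to 10. With quantile normalization (23 and 10), 32.8% of all genes tested were called higher and 42.3% lower. With median ratio scaling (36 and 5), these shares were 37.7% and 38.3%. The count called lower moved to 5 with median ratio scaling, where 49.6% of all called genes were higher, against 34.1% as reported. Same-numbered libraries did not deviate together (correlations of -0.024, 0.018 and -0.0077), so the numbers were not taken as pairs; with the replicate block 26 members were called higher and 8 lower, and all 46 member calls were as reported, whereas SETD2 passed (adjusted p = 0.0156 by limma). The ratios of PSMB8 over PSMB5, PSMB9 over PSMB6 and PSMB10 over PSMB7 kept their direction in the alternatives run for them. These were other pseudocounts, scalings, the replicate block and libraries left out. They could hardly have turned it, so the kept direction is no support. A scale factor acts on both genes of a library, and the block leaves the mean difference unchanged. PSMB8 and PSMB9 also reached the minimum for testing only through the shSETD2 libraries. The size did change: the rises in log2 ratio ranged from 3.86 to 7.996, 2.57 to 5.22 and 1.61 to 2.34, highest with a pseudocount of 0.01.

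Directions are given here for members and for genes named in the text, except NFE2L1, AL136295.5, IRF9, DCAF11, PCK2 and CARMIL3. With median ratio scaling the direction turned for PSMC1 (0.28), PSMD4 (0.29), RPS27A (0.12), UBB (0.23) and EMC9 (0.24). With upper quartile scaling it turned for PSMC1 (0.039), PSMD4 (0.032) and EMC9 (0.0097). With quantile normalization it turned for PSMC1 (0.013), PSMB1 (-0.19), PSMB4 (-0.052), POMP (-4.38e-05), EMC9 (0.069) and JAK2 (0.046). Over the fits without 1 library, values ranged from -0.0092 to 0.19 for PSMD9 and from -0.025 to 0.097 for PSMC6 (both lowest without shSETD2 2), from -0.055 to 0.088 for PSMD13 (lowest without control 1, also below 0 without shSETD2 1), from -0.060 to 0.14 for PSMG2 (below 0 without control 1 or shSETD2 2) and from -0.11 to 0.56 for PSMB5, and from -0.11 to 0.037 for PSMD4 (highest without control 3). The cause was not tested. Counting error is unknown without fragment numbers, so values near 0 in control libraries have no stated limit.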
